A study of Mus musculus with 9 samples.

Results

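The mammalian circadian clock is a loop of transcription factors that runs in nearly every cell type, smooth muscle included. CLOCK and ARNTL (also called BMAL1) pair up, bind E-box sequences and switch on the genes of their own inhibitors, the PER and CRY proteins. A second loop runs through the nuclear receptors NR1D1 and NR1D2 (REV-ERBα and REV-ERBβ), which repress Arntl through ROR elements, and DBP carries the rhythm to output genes through D-boxes. H3K27ac is an acetyl mark of active promoters and enhancers, whereas H3K4me1 is a methyl mark that is typical of enhancers and sparse at the start sites of active genes.

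The 10 core clock genes Clock, Arntl, Per1, Per2, Per3, Cry1, Cry2, Nr1d1, Nr1d2 and Dbp were examined among 21853 protein-coding genes. They were chosen for their known role, and each locus was the gene body plus 25 kb either side. All peaks that overlapped a locus were taken and divided into promoter peaks (touching the window 1 kb either side of a start of a protein-coding transcript), intragenic peaks and flanking peaks. The 6 replicate lists held 588 such peaks and the 2 pooled lists held 180.

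Primary oviductal muscle cells came from WT mice, 8 to 12 weeks old, on day 2 of pregnancy. The oviducts were digested with enzymes, and the cells were plated for some hours in medium with serum before fixation. ChIC-Seq, in which an antibody steers protein A-MNase to cut the chromatin around a mark, was run with anti-H3K27ac (3 samples), anti-H3K4me1 (3 samples) and IgG (3 samples) as the control of the peak calls. No other genotype, day or hour was compared, and the hour of collection, on which clock genes depend, was not given in the sources used here. The labels number the replicates without saying whether they came from separate animals, so the p-values measure the spread between these samples, which may be technical.

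Treatment libraries held 40551842 to 78891920 fragments and IgG libraries held 3110985 to 3713369. The replicate lists held 93684 to 152889 peaks, of which 13253 to 19637 reached 1.3 on the −log10 p-value scale. Most listed peaks were therefore weak, and the lists describe where signal was called and not how much of a mark was there. As a check of the cell label, promoter peaks were in all 6 replicate lists for the smooth muscle genes Acta2, Des and Smtn (3 of 8 markers). Myh11, smooth muscle myosin, had a promoter peak in 0 of 3 H3K27ac lists and 1 of 3 H3K4me1 lists. Stromal genes were in all 6 lists for 5 of 6 markers, and 0 of 7 epithelial, 0 of 4 endothelial and 0 of 5 blood markers were, where 24.3% of all genes were. The blood gene Ptprc had a promoter peak in 3 of 3 H3K27ac lists and 0 of 3 H3K4me1 lists, and the other 4 blood markers, Csf1r, Cd79a, Cd3e and Itgam, had none in any of the 6. The part of stromal cells in the clock gene values was not tested.

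The sequences under these peaks are shown first, because the clock works through short elements near the starts of its own genes. Sites were found by exact match on both strands in the promoter windows on GRCm38: the E-box CACGTG, a second E-box form CACGTT, the D-boxes TTATGTAA and TTATGCAA, the ROR element cores TAGGTCA and TGGGTCA, and the cyclic AMP element TGACGTCA. Each stretch reads 5′ to 3′ on the strand of its gene, with the matched letters in capitals, and a match on the other strand appears as its reverse complement. These 13 were picked after their values were seen, to show the elements that lie under H3K27ac peaks, so their overlap with those peaks is a description only.
Per1 E-box, 332 bp upstream of the first start, chr11:69094871-69094900: tgagccagcctgCACGTGttccctacagct
Per1 E-box, 148 bp upstream of the first start, chr11:69095055-69095084: cgcccccgccctCACGTGgctctatcacta
Per1 E-box, 163 bp upstream of a later start, chr11:69098771-69098800: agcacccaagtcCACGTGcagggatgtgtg
Per1 D-box, 20 bp upstream of that later start, chr11:69098914-69098943: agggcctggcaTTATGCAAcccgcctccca
Per2 second E-box form, 8 bp downstream of the start, chr1:91459302-91459331: agcgcgcgcggtCACGTTttccactatgtg
Per2 D-box, 121 bp upstream, chr1:91459431-91459460: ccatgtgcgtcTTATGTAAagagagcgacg
Cry1 E-box, 47 bp upstream, chr10:85185097-85185126: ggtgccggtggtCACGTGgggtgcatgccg
Cry2 second E-box form, 189 bp upstream, chr2:92434218-92434247: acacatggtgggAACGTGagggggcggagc
Nr1d1 E-box, 364 bp upstream, chr11:98775683-98775712: cagttctccaatCACGTGaagctctcacgt
Nr1d2 E-box, 452 bp downstream of the first start, chr14:18238661-18238690: tgccgcactggcCACGTGcacggtgtgttt
Arntl ROR element, 79 bp downstream of the first start, chr7:113207530-113207558: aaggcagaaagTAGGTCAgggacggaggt
Dbp ROR element, 186 bp upstream, chr7:45704888-45704916: ttggccaaataTAGGTCAgtgtcccgcct
Dbp ROR element, 231 bp upstream, chr7:45704843-45704871: ttggcccgaagTGGGTCAcggtcccgcct

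Each of these 13 sites lay inside a peak of all 3 H3K27ac lists. The Per2 and Nr1d1 sites lay in peaks of 2 of 3 H3K4me1 lists, the Cry1, Cry2 and Dbp sites in those of 1, and the Per1, Nr1d2 and Arntl sites in none. Over all promoter windows of the 10 genes there were 37 matches, of which 25 lay in peaks of all 3 H3K27ac lists, 0 lay in peaks of all 3 H3K4me1 lists and 24 lay in no H3K4me1 peak. E-boxes made up 11 of the 37, at Arntl, Per1, Cry1, Nr1d1 and Nr1d2, and 8 of these were in all 3 H3K27ac lists. The cyclic AMP element had 0 matches there. The windows themselves were widely covered by H3K27ac. The median clock gene had 86.0, 63.8 and 81.2% of its windows under peaks in the 3 H3K27ac lists, and 15.8, 2.91 and 20.6% in the 3 H3K4me1 lists. The match counts were not tested against this coverage, so no preference of the elements for either mark is read from them.

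The elements themselves are common. In windows of 1 kb either side of the first start, the E-box was in 4 of 10 clock genes and in 27.5% of all promoters, the second form in 5 of 10 and in 28.8%, the D-box in 4 of 10 and in 10.9%, the ROR element in 3 of 10 and in 35.3%, and the cyclic AMP element in 0 of 10 and in 4.02%. Per3 had 3 D-boxes and no E-box match in its window. Its 250 bases upstream of the start are shown because a pair of D-boxes stands close together there, in peaks of H3K27ac replicates 1 and 3 and outside those of replicate 2. They come from the RefSeq promoter table (GRCm38), in which 9 of the 10 genes had an entry.
Per3 upstream, minus strand, chr4:151044666-151044915: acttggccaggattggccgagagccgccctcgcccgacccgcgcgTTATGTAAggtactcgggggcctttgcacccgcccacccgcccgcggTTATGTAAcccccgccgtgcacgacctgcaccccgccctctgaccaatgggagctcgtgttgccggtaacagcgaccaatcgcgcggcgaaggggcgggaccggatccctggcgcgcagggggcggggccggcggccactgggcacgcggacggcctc

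H3K27ac marked the promoters of the clock genes nearly without exception. A promoter peak was present for 10, 9 and 10 of the 10 genes in H3K27ac replicates 1, 2 and 3, against 8, 5 and 7 in the H3K4me1 replicates. Over all protein-coding genes the shares in the same lists were 55.3, 54.1 and 53.0% for H3K27ac and 45.4, 41.9 and 41.5% for H3K4me1. The means were 9.67 ± 0.577 and 6.67 ± 1.53 (SD, n = 3), a difference of 3 genes (exact permutation test, two-sided, p = 0.1, adjusted p = 0.133 over 4 measures). With 3 lists against 3 the smallest p that this test can give is 0.1, so no comparison between the marks could pass 0.05. The values did not overlap between the marks. With windows of 3 kb the difference turned to −0.333 genes (9.67 against 10), and in the pooled lists it was 1 gene (10 against 9).

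As many as 9 of the genes had a promoter peak in all 3 H3K27ac lists, where 45.9% of all protein-coding genes did. The exception was Per3. Only Per1, Per2 and Cry2 had a promoter peak in all 3 H3K4me1 lists (3 of 10), where 27.9% of all genes did. The same 3 genes had one in all 6 lists, where 24.3% of all genes did. The count in all 6 lists was 5 without H3K4me1 replicate 2 or without H3K4me1 replicate 3, 9 with 3 kb windows or in the pooled lists, and 1 with 500 bp windows, with peaks of at least 1.3 on the −log10 scale or with equal list lengths, so nothing is read from its distance to the share over all genes.

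The gap was wider at the start sites. A start lay inside a peak for 10, 9 and 10 genes in the H3K27ac lists and for 4, 1 and 1 genes in the H3K4me1 lists. Over all genes the shares were 43.3, 43.1 and 40.7% for H3K27ac and 21.4, 18.3 and 16.7% for H3K4me1, so the mean of 2 of 10 clock genes for H3K4me1 is near the share over all genes. The difference of the means was 7.67 genes (9.67 ± 0.577 against 2 ± 1.73, SD, n = 3, exact permutation test, two-sided, p = 0.1, adjusted p = 0.133). Among lists called against the same IgG library it was 6.5 genes (IgG replicate 2) and 9 genes (IgG replicate 3). Starts were covered in all 3 H3K27ac lists for 9 clock genes (30.3% of all genes) and in all 3 H3K4me1 lists for 0 (6.96% of all genes). Clock, Arntl, Per1, Cry2 and Nr1d2 had their start in all 3 H3K27ac lists and in no H3K4me1 list, a pattern of 5 of 10 clock genes and of 12.7% of all genes. Only genes with a start in all 3 H3K27ac lists can show it. Of these it held for 2781 of 6629 over all genes and for 5 of 9 clock genes, so no lack of H3K4me1 particular to clock genes is read from it.

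**Figure D1:**
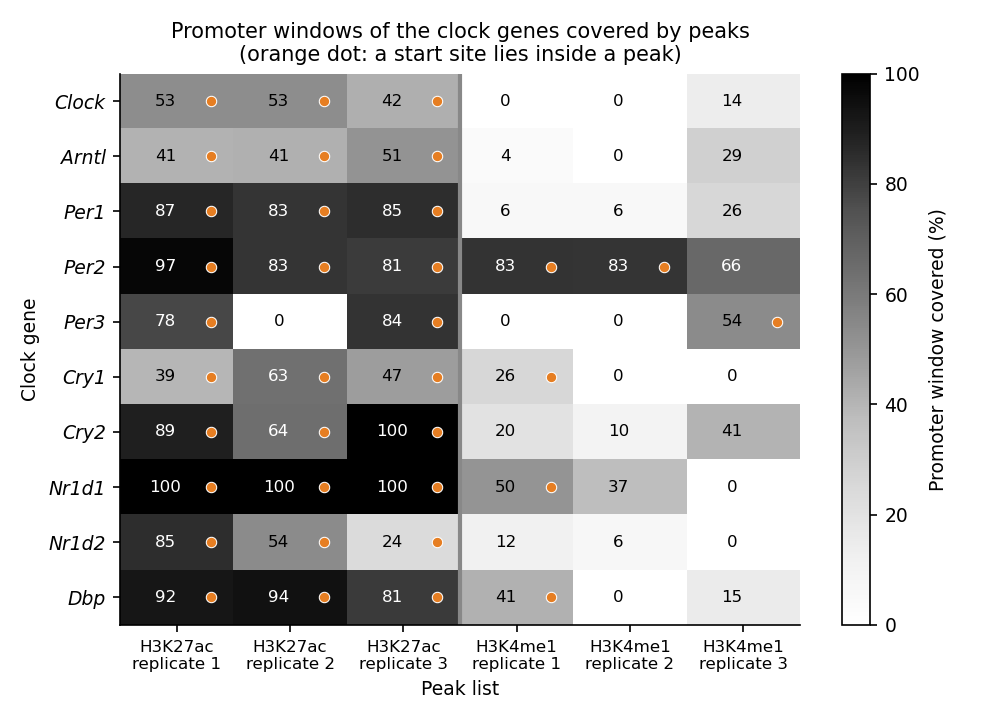
Share of each clock gene's promoter windows covered by peaks (%, number and grey shade), with 1 row per gene and 1 column per replicate list, and an orange dot where a start lies inside a peak. The H3K27ac columns carry 29 dots and the H3K4me1 columns 6, of which 2 are at Per2.

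The 29 H3K27ac peaks that covered a start had a median length of 3335 bp (504 to 17774 bp) and a median fold enrichment over the local background of 2.2 (1.83 to 2.58). Among the promoter peaks of their own list their median percentile was 81.9 by length and 78.6 by fold enrichment, in a set that also holds peaks touching a window without covering a start. The 6 H3K4me1 peaks over a start had a fold enrichment of 1.62 to 2.16, and their −log10 p-value had a median of 1.41 against 1.79 for H3K27ac.

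For 5 of the 10 genes no replicate H3K4me1 peak covered a start, and for the other 5 a start was covered in at least 1 list (Per2 in 2, and Per3, Cry1, Nr1d1 and Dbp in 1). Among the former, the nearest H3K4me1 peak to a start of Clock was 685, 1009 and 1424 bp away in the 3 lists in order of distance, and that of Nr1d2 was 714, 876 and 1464 bp away. For Per1 the distances were 75, 286 and 677 bp, for Cry2 they were 186, 689 and 800 bp, and for Arntl 96, 404 and 1043 bp. Counted from the first start of each gene, the position at the start was covered in 9.33 ± 0.577 genes by H3K27ac and in 2 ± 1.73 by H3K4me1, whereas 3 kb downstream it was covered in 4.67 ± 0.577 and 5.33 ± 1.53 genes (SD, n = 3). Over all genes the start was covered in 37.3% ± 1.43 by H3K27ac and 13.0% ± 1.95 by H3K4me1, and 3 kb downstream in 11.4% ± 1.23 and 15.0% ± 0.342. At 3 kb the clock gene counts of the marks overlapped (5, 4 and 5 against 4, 5 and 7 genes), so no order is read there.

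**Figure D2:**
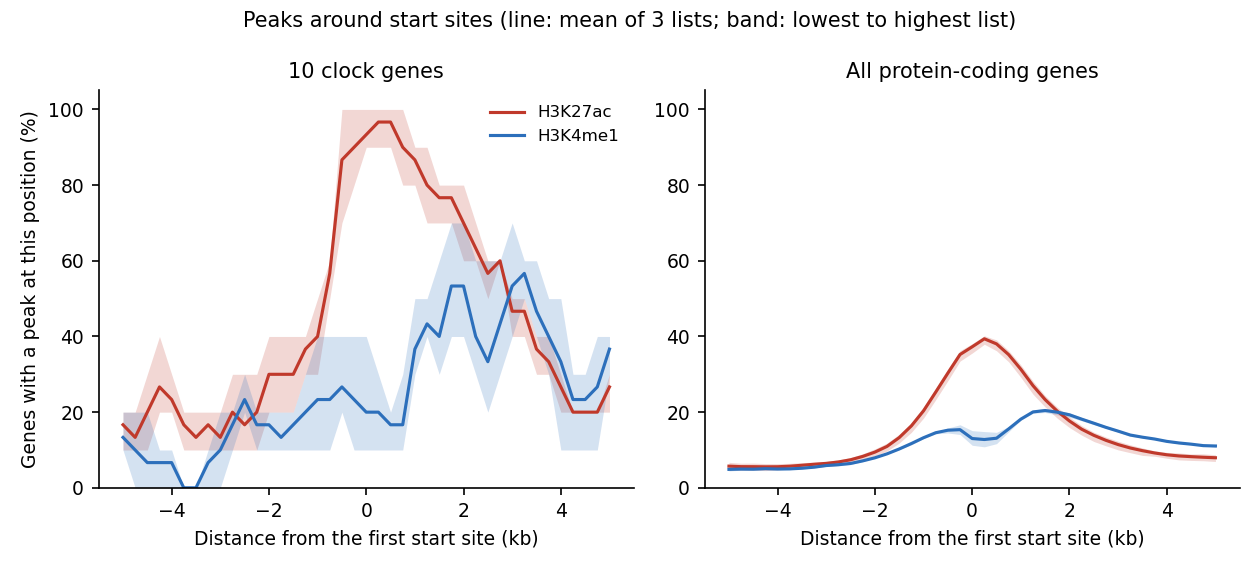
Genes with a peak at each position from 5 kb upstream to 5 kb downstream of the first start (x axis, kb; y axis, % of genes), for the 10 clock genes (left) and all protein-coding genes (right). Lines are means of 3 lists and bands run from the lowest to the highest list: the H3K27ac line is highest just downstream of the start, and the H3K4me1 line lies lower there, with bands that overlap at 3 kb downstream in the clock genes.

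Promoter coverage of every H3K27ac list was above that of every H3K4me1 list for 8 of the 10 genes, where the same held for 26.2% of all genes. Only genes with a promoter peak in all 3 H3K27ac lists can qualify. Of these it held for 5730 of 10034 over all genes and for 8 of 9 clock genes. The 8 were all but Per2 and Per3, and each gave the smallest p (exact permutation test, two-sided, p = 0.1, adjusted p = 0.125 over 10 genes). The separation did not hold under every alternative. It was lost at Arntl with 3 kb windows. It was also lost at Clock with peaks of at least 1.3 on the −log10 scale, since the H3K27ac start peak of replicate 2 had 1.296. Windows ran from 2001 bp to 5576 bp, since Per1, Clock, Arntl and Cry1 have starts far enough apart to give 2 windows each.

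Across whole loci the replicate lists of the marks overlapped in covered sequence. Peaks covered 18.1, 15.3 and 13.2% of the 10 loci in the H3K27ac lists and 16.0, 15.8 and 15.5% in the H3K4me1 lists. The means were 15.6% ± 2.45 and 15.8% ± 0.231 (SD, n = 3), with a difference of −0.216 percentage points (exact permutation test, two-sided, p = 0.8, adjusted p = 0.8), whose sign depended on the settings. In the pooled lists coverage was 18.9% for H3K27ac and 25.05% for H3K4me1 (−6.18 points), and between the lists called against IgG replicate 3 the difference was −2.31 points. The clock genes' own promoter windows held 12.7, 13.5 and 16.3% of the covered sequence for H3K27ac and 3.86, 2.07 and 4.70% for H3K4me1. That difference was 10.6 percentage points (14.2% ± 1.89 against 3.54% ± 1.34, exact permutation test, two-sided, p = 0.1, adjusted p = 0.133), and the lists did not overlap. The median clock locus was covered to 13.6 to 20.3% by H3K27ac and 10.1 to 14.2% by H3K4me1, where the median over all genes was 3.87 to 5.27% and 3.56 to 4.34%.

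Locus coverage of every H3K27ac list was above that of every H3K4me1 list at Per1 and Dbp (2 of 10, against 17.2% of all genes), and the reverse held at Clock, Arntl and Cry2 (3 of 10, against 12% of all genes). The count for H3K27ac is close to the share over all genes. Each of the 5 gave the smallest p (exact permutation test, two-sided, p = 0.1, adjusted p = 0.2 over 10 loci), and the other 5 loci overlapped (p = 0.4 to 0.7 by the same exact test). The separation was lost with peaks of at least 1.3 on the −log10 scale at Clock (p = 0.2), Arntl (p = 0.6) and Cry2 (p = 1, difference 0.0211 points), with equal list lengths at Clock (p = 0.3), with flanks of 10 kb at Clock (p = 0.2) and Cry2 (p = 1), and with flanks of 50 kb at Arntl (p = 0.2), all by the same exact test. The loci also hold other genes, and 13 to 19 flanking peaks per list touched a promoter of one.

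**Figure D3:**
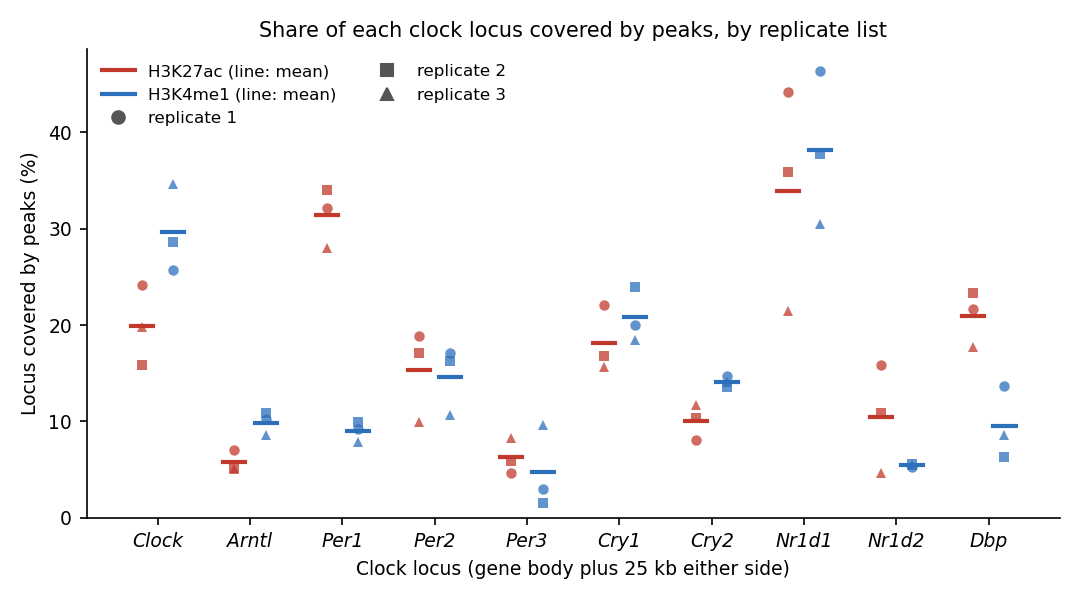
Share of each clock locus (gene body plus 25 kb either side) covered by peaks (y axis, %), with points for the 3 replicate lists of each mark and lines for their means. H3K27ac lies above H3K4me1 without overlap at Per1 and Dbp, and below it at Clock, Arntl and Cry2.

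The activators Clock and Arntl had H3K27ac over the start and more of the locus under H3K4me1 than under H3K27ac in every replicate list. Clock (chr5:76209868-76304792, minus strand) encodes the histone acetyltransferase partner of the activator pair. Its promoter windows were covered to 52.9, 52.9 and 42.1% by H3K27ac and to 0, 0 and 14.3% by H3K4me1. These shares include the window of a later start, which held no H3K27ac peak in any replicate list. The Clock locus was covered to 24.1, 15.9 and 19.8% by H3K27ac and to 25.7, 28.6 and 34.7% by H3K4me1, a difference of −9.75 percentage points. The single H3K27ac start peak measured 6358, 5597 and 4460 bp, at length percentiles 94.5, 92.7 and 90.2 of the promoter peaks of its lists, and no H3K4me1 peak covered a start in any replicate. The H3K27ac lists held 13 to 17 intragenic peaks of Clock and the H3K4me1 lists 17 or 18.

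Arntl (chr7:113207465-113314126, plus strand) encodes the partner of CLOCK. Its promoter windows were covered to 41.0, 41.5 and 51.1% by H3K27ac and to 3.93, 0 and 28.8% by H3K4me1. These shares include the window of a later start, which held no peak of either mark in any replicate list. The H3K27ac start peak spanned 2742, 2075 and 4219 bp and held the ROR element printed above in all 3 lists. Over the locus, coverage was 7.01, 5.13 and 5.10% for H3K27ac and 10.2, 10.8 and 8.56% for H3K4me1, a difference of −4.13 percentage points. The window of the later start, in which the only Arntl E-box match lies 26516 bp downstream of the first start, had that E-box in no peak of any list.

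The 3 Period genes encode the partners of CRY in the repressor complex, and their marks differed. Per1 (chr11:69095217-69109960, plus strand), which also responds rapidly to outside stimuli, had the largest difference in favour of H3K27ac among the loci. Its promoter windows were covered to 87.0, 82.9 and 84.9% by H3K27ac and to 5.77, 5.81 and 26.1% by H3K4me1. Coverage of the locus was 32.1, 34.0 and 28.0% against 9.20, 9.94 and 7.90%, a difference of 22.4 percentage points. Of the 20813, 22036 and 18124 bp of the locus under H3K27ac, 14234, 15684 and 11661 bp lay in the flanks. There 4, 3 and 5 H3K27ac peaks touched a promoter of another gene, so the difference is not that of Per1 alone. One H3K27ac peak of 6932, 8263 and 8864 bp ran across both groups of starts in each list and held 4 of the 5 E-boxes and the D-box. Its length lay at percentiles 95.8 to 98.9 of the promoter peaks of the lists. In the pooled list this peak was 13845 bp long and also touched a promoter of the neighbouring gene Vamp2. The H3K4me1 promoter peaks of Per1 were short and lay beside the starts, at 206 to 862 bp, and most of the H3K4me1 peaks of the locus were in its flanks (7, 5 and 6 flanking peaks).

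Per2 (chr1:91415982-91459324, minus strand) carried both marks over its promoter. H3K27ac covered 97.4, 82.9 and 81.0% of the window and H3K4me1 83.3, 82.9 and 66.5%, a difference of 9.53 percentage points with overlapping lists (exact permutation test, two-sided, p = 0.6). The start was inside an H3K4me1 peak in replicates 1 and 2, and in replicate 3 the nearest such peak was 87 bp away. The H3K4me1 peaks over the start were 4929 and 4830 bp long, with fold enrichments of 2.06 and 2.15 at percentiles 94.5 and 98.6 of the promoter peaks of their lists. Locus coverage was 18.8, 17.1 and 9.99% for H3K27ac and 17.1, 16.2 and 10.7% for H3K4me1.

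Per3 (chr4:151003652-151044665, minus strand) had the lowest mean H3K4me1 coverage of the 10 loci and was the only one without H3K27ac over its promoter in a replicate. Its H3K4me1 locus coverage was 3.02, 1.58 and 9.59% (mean 4.73% ± 4.27, SD, n = 3), on both sides of the next lowest mean (5.43% at Nr1d2). H3K27ac covered 78.1, 0 and 83.6% of the Per3 promoter window, and the nearest H3K27ac peak of replicate 2 was 8000 bp from the start. H3K4me1 covered 0, 0 and 53.8%. The difference was 35.9 percentage points, with SDs of 46.7 for H3K27ac and 31.1 for H3K4me1 and overlapping lists (exact permutation test, two-sided, p = 0.4). Per3 lies inside the annotated span of Camta1, so its flanks are sequence of that gene too.

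The cryptochromes, the direct repressors of CLOCK and ARNTL, combined an H3K27ac start with long stretches inside the gene that carried both marks. Cry1 (chr10:85131700-85185064, minus strand) had H3K27ac over 39.5, 63.3 and 47.3% of its windows and H3K4me1 over 26.0, 0 and 0%. These shares include the window of a later start. There H3K27ac replicate 2 had short peaks of 233 and 334 bp and the other H3K27ac replicates had none. The H3K27ac start peaks of Cry1 were alike in length, at 2993, 3335 and 3315 bp. The locus was covered to 22.1, 16.8 and 15.6% by H3K27ac and to 20.0, 23.9 and 18.5% by H3K4me1, with overlap.

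Cry2 (chr2:92403646-92434043, minus strand) had H3K27ac over 89.2, 64.3 and 100% of its window and H3K4me1 over 20.0, 10.0 and 40.6%. The H3K4me1 pieces lay beside the start in each replicate list and covered it in none, whereas an H3K4me1 peak of 2694 bp in the pooled list covered it. Locus coverage was 8.05, 10.3 and 11.7% for H3K27ac and 14.7, 13.5 and 14.1% for H3K4me1, a difference of −4.10 percentage points.

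In the second loop, Nr1d1 (chr11:98767932-98775333, minus strand) had its whole promoter window under H3K27ac, at 100% in every replicate, against 50.5, 37.1 and 0% for H3K4me1. The start peak was 17774, 5838 and 3313 bp long, and the first of these was the longest H3K27ac start peak of any clock gene. Its locus had the highest mean H3K4me1 coverage of the 10 (38.2% ± 7.98, SD, n = 3), at 46.4, 37.7 and 30.4%, against 44.2, 35.9 and 21.5% for H3K27ac. The gene overlaps Thra, which encodes a thyroid hormone receptor, and part of the flank is Thra sequence.

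Nr1d2 (chr14:18204054-18239127, minus strand) varied more than Nr1d1 between the H3K27ac replicates in promoter coverage (SD 30.6 against 0 percentage points). In locus coverage it varied less (SD 5.63 against 11.5 percentage points). H3K27ac covered 85.0, 53.7 and 23.8% of its window and H3K4me1 11.5, 5.90 and 0%. In replicate 3 the H3K27ac peak was only 504 bp long, yet had the highest fold enrichment (2.58) of the 29 start peaks. Of its 3 E-boxes, 2 lay in peaks of all 3 H3K27ac lists and the other lay in 2 of them. The locus was covered to 15.9, 10.9 and 4.63% by H3K27ac and to 5.25, 5.62 and 5.43% by H3K4me1.

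Dbp (chr7:45705088-45710203, plus strand), the output factor and a direct target of CLOCK and ARNTL, is the shortest of the 10 genes. H3K27ac covered 92.4, 94.1 and 81.5% of its promoter window and H3K4me1 41.3, 0 and 15.0%. The H3K27ac start peak of replicate 2 ran over 5050 bp, nearly the 5116 bp of the gene. The locus was covered to 21.7, 23.4 and 17.7% by H3K27ac and to 13.7, 6.31 and 8.57% by H3K4me1, a difference of 11.4 percentage points. Of the 11957, 12887 and 9778 bp under H3K27ac, a flanking peak that touched promoters of Rpl18 and Sphk2 held 4765, 6634 and 4717 bp. Dbp overlaps Sphk2, and the reads of overlapping genes cannot be told apart in peak lists.

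Away from promoters, 63 regions in the loci were covered by at least 2 of 3 replicates of both marks and lay outside every promoter window of a protein-coding gene. They summed to 50419 bp, with 32 in the clock gene bodies and 31 in the flanks. The number was 40 without H3K27ac replicate 1, 39 without H3K27ac replicate 2, 25 where all 3 replicates of each mark were required and 18 with peaks of at least 1.3 on the −log10 scale. Of the 63, Clock had 16, Cry1 14, Per2 8 and Nr1d1 7, whereas Per3 had 1. Sequence present in all 6 lists was found in 22 of the regions and summed to 17184 bp. It was in 3 of the 16 Clock, 3 of the 14 Cry1, 4 of the 8 Per2, 3 of the 7 Nr1d1 and 2 of the 2 Dbp regions. The loci ran from 55116 bp (Dbp) to 156662 bp (Arntl), so no order of the genes is read from the number of regions.

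The longest was an intronic region of Cry1 at chr10:85159557-85163508 (3952 bp, centred 23532 bp downstream of the first start), of which 2887 bp lay in all 6 lists. Next was Cry2 at chr2:92424320-92428263 (3944 bp, of which 2000 bp are exonic and which overlaps D930015M05Rik). Per2 had 2752 bp at chr1:91455572-91458323, centred 2377 bp downstream of its start. Clock had 2356 bp at chr5:76250576-76252931, with 1779 bp in all 6 lists. Nr1d1 had none in its short gene body and a series upstream, centred 2157, 5862, 8325 and 10005 bp before the start.

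Exact matches in the 63 regions were found for the E-box in 6 (7 sites), for the second form in 8, for the D-box in 2, for the ROR element in 7 (12 sites) and for the cyclic AMP element in 1. The Cry1 region held 4 ROR element matches and the longest Cry2 region held 3. Region lengths ran from 22 to 3952 bp, so these counts follow length as well.

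**Figure D4:**
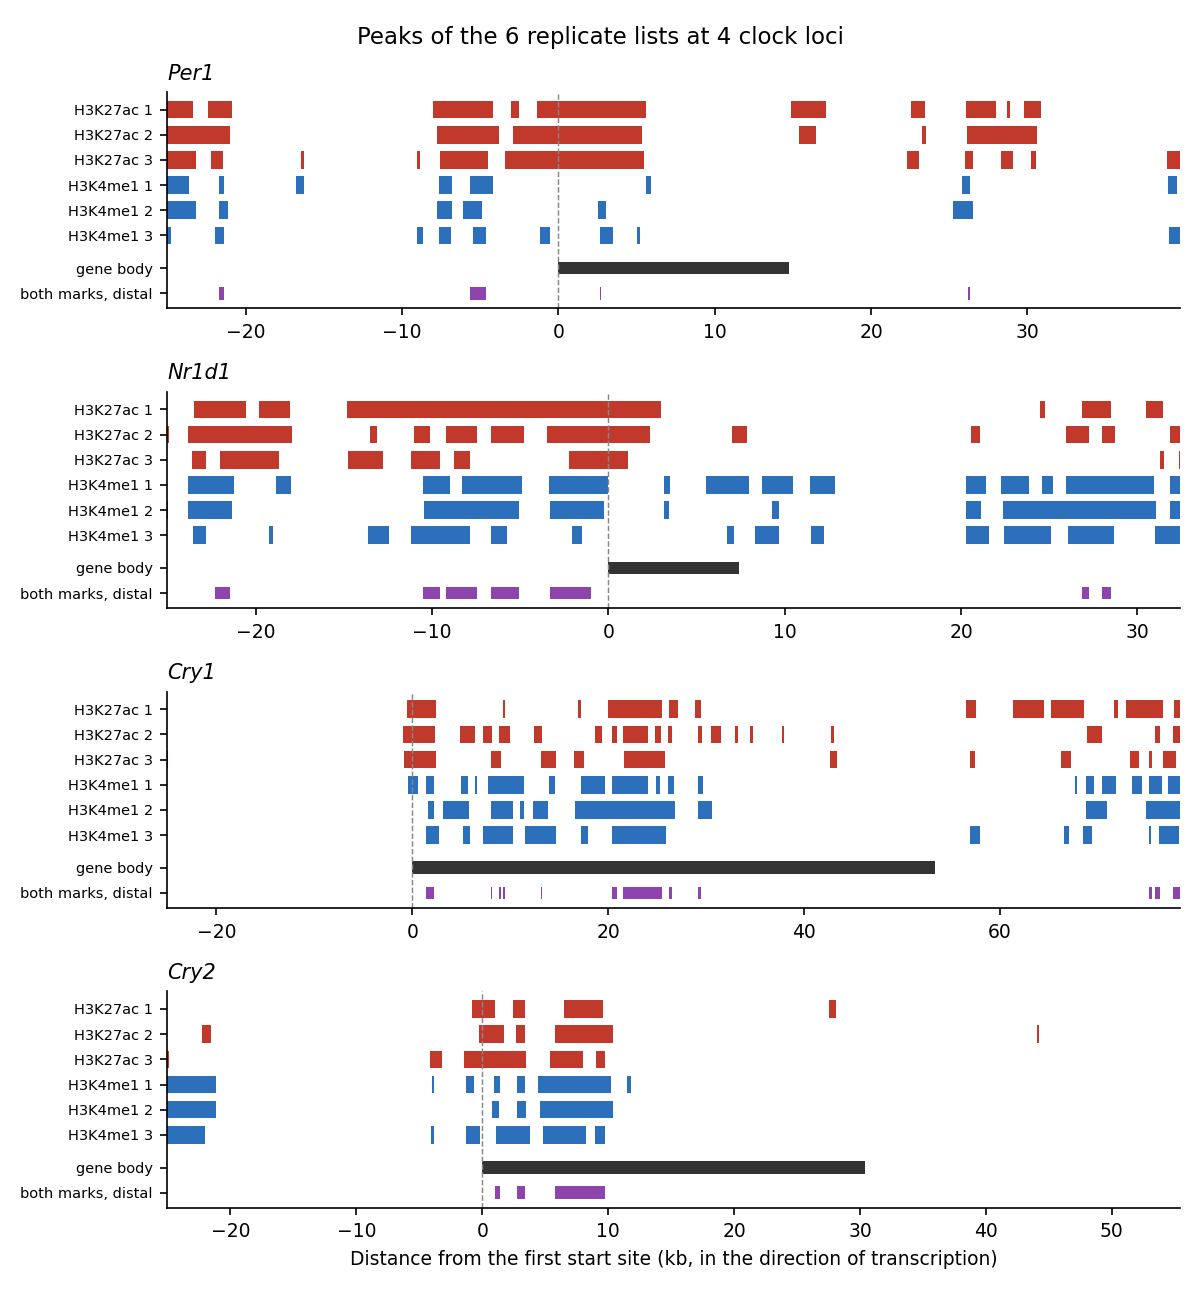
Peaks of the 3 H3K27ac (red) and 3 H3K4me1 (blue) replicate lists at Per1, Nr1d1, Cry1 and Cry2, by distance from the first start (x axis, kb, in the direction of transcription; dashed line, start), with the gene body (black) and the distal regions with both marks (purple). H3K27ac bars cross the start in all 3 lists of each gene, and the 3952 bp Cry1 region lies about midway along the gene.

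Of 20 further genes of the clock system, 14 had a promoter peak in all 3 H3K27ac lists and 14 in all 3 H3K4me1 lists, where 45.9% and 27.9% of all genes did, and 0 had one in no list. One in all 6 lists was present for 13 of the 20, where 24.3% of all genes had one. These 13 included the nuclear receptors Rora and Rorb, the D-box factor Tef, the E-box repressors Bhlhe40 and Bhlhe41, the CLOCK inhibitor Cipc, the PER kinases Csnk1d and Csnk1e, the ubiquitin ligase part Btrc, and Timeless, Usp2 and Nampt. Starts were covered in all 3 H3K27ac lists for 11 of the 20 and in all 3 H3K4me1 lists for 3 (Rora, Csnk1e and Timeless), where 30.3% and 6.96% of all genes were. Nfil3, a D-box repressor, had a promoter peak in 3 of 3 H3K27ac lists and 2 of 3 H3K4me1 lists.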

How the data were processed

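The 8 deposited ChIC-Seq peak lists were used, with 3 replicates and 1 pooled list for either mark. Per the submitters' processing notes, reads were handled with cutadapt, Bowtie2 and MACS2 on GRCm38.p5. Per the file headers, the authors called broad paired-end peaks with MACS 2.2.7.1 (p-value cutoffs 0.05 for strong and 0.1 for weak regions), scaling the larger library to the smaller. IgG replicate 1 was the control of H3K27ac replicate 1, IgG replicate 2 that of H3K27ac replicate 2 and of both H3K4me1 replicates 1 and 2, and IgG replicate 3 that of the third replicate of either mark. Treatment exceeded IgG 11.3 to 25.2 times in depth, so IgG depth limits each call. The IgG libraries were not analysed on their own.

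The deposited pileup is a coverage signal scaled to the IgG depth, the deposited fold enrichment is a ratio to the local background, and the deposited p-value is on the −log10 scale. All are region means and served to describe or filter peaks.

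Genes and starts came from GENCODE mouse release 21 (GRCm38), and all peaks on 21 of 21 chromosomes lay within the reference lengths. Coverage was the union of a list's peaks, at 1-based positions, and an overlap needed 1 bp. One value per replicate list was compared by an exact permutation test over 20 assignments, with Benjamini-Hochberg adjustment (Python 3.11.15, numpy 2.4.6, pandas 2.3.3, pysam 0.24.0). Interval arithmetic and the test were tested on simulated data. The 10 members are all named, and of the further clock genes those with promoter peaks in all 6 lists or in none, with Nfil3 added after its values were seen. Some genes of that list are counted but not reported here by name. The members, gene lists, motifs and tests were chosen with earlier results of these data known. Alternatives were other promoter windows, starts, flanks, overlap and peak thresholds, equal list lengths, pooled lists, a replicate block and leaving out each list. Grouping by IgG library and the alternatives for single promoters were chosen after seeing the data.

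Replicate numbers were not taken to pair the samples, since the deviations from the mark means correlated at −0.00226, 0.324 and 0.424 for numbers 1, 2 and 3. The 3 pairs of lists that shared an IgG library correlated at 0.297 to 0.424 and the other 6 pairs at −0.429 to 0.00247. Lists with a common control thus deviated together, whereas the permutation test treats the lists as independent. The deviations of a mark's 3 lists sum to 0, so the negative values follow in part from the positive ones. In the pairs of equal number 2 or 3 a common control and a common number cannot be told apart.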

Additional observations from a re-analysis of the deposited data

How the results depend on the processing

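H3K27ac exceeded H3K4me1 in clock starts covered and in the promoter share of coverage under every alternative run for these measures; leaving out 1 list gave differences of 7.17 to 8.67 genes and 9.56 to 11.4 percentage points. For promoters with a peak, leaving out 1 list gave 2.17 to 3.67 genes, and 3 kb windows turned the difference to −0.333. Locus coverage changed sign with peaks of −log10 p-value of at least 1.3 (2.35 percentage points), equal list lengths (0.559) and flanks of 10 kb (0.302) or 50 kb (0.545), and ran from −1.49 to 0.950 when 1 list was left out, positive only without H3K27ac replicate 3. It was −6.18 in the pooled lists. The cause was not tested.

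The count of 3 clock promoters with both marks in all 6 lists was 1 with 500 bp windows, the stricter peaks or equal lists, 9 with 3 kb windows or pooled lists, and 3 to 5 when 1 list was left out (5 without H3K4me1 replicate 2 or 3). The 63 distal regions were 18 with the stricter peaks, 41 with flanks of 10 kb, 25 where all 3 replicates of each mark were required, and 39 to 55 when 1 list was left out (40 without H3K27ac replicate 1, 39 without replicate 2).

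Among single loci, Per2 changed sign with flanks of 10 kb (−0.962) and 50 kb (−1.12), pooled lists (−6.08) and without H3K27ac replicate 1 (−1.11) or 2 (−0.248) or H3K4me1 replicate 3 (−1.34), and ran from −1.34 to 3.31 with 1 list left out. Per3 did with 10 kb flanks (−0.319), pooled lists (−1.47) and without H3K4me1 replicate 2 (−0.0346, the lowest with 1 list left out, the highest being 3.97). Under the stricter peaks Cry1 (3.20), Cry2 (0.0211) and Nr1d1 (0.935) changed sign, as did Cry1 with 50 kb flanks (0.0487) and Nr1d1 without H3K27ac replicate 3 (1.88, the highest with 1 list left out, the lowest being −9.48). The differences in promoter coverage kept their sign in 128 values, and in the other 2 (the pooled lists at Per2 and Cry2) they were 0. A kept sign did not always mean lists without overlap: the promoter lists overlapped at Arntl with 3 kb windows and at Clock with the stricter peaks. With a replicate block, which assumes a pairing that the correlations do not show for every number, the exact p was 0.25 for promoters with a peak (3), starts covered (7.67) and the promoter share (10.6), and 0.75 for locus coverage (−0.216); 0.25 is the smallest that 3 pairs can give.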
